A study of Mus musculus with 29 samples.

Results

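Dermis from mice that had lost Dlx3 was compared with control dermis 1 week after tamoxifen. The comparison used 4 of the 29 RNA-seq libraries of the series, 2 icKO and 2 WT, chosen by their titles and by the headers of the week 1 expression table. In icKO mice Dlx3 was deleted in adult skin by a tamoxifen-inducible Cre recombinase under the keratin 14 (K14) promoter, which is active in basal keratinocytes and in the outer cell layers of the hair follicle. WT libraries are labelled as taken at the same time after tamoxifen, both genotypes were of mixed background, and the headers give the route as intraperitoneal. The series title gives the mice as adults of postnatal days 42 to 46. The labels do not say which exons were deleted or whether WT mice carried the Cre. They also do not tie the 2 libraries of a genotype to different animals, so p-values cover only the spread between libraries, which may be technical.

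Dlx3 is a homeobox transcription factor known in the mouse for its role in differentiating epidermis and in the growing hair follicle. The follicle is an epithelial structure that reaches down into the dermis, so dermis separated from skin can hold follicle epithelium. During hair growth, matrix cells around the dermal papilla give rise to the hair shaft, which is built from hair keratins and keratin-associated proteins, and to the inner root sheath, a sleeve of Krt25 to Krt28, Krt71 to Krt73 and trichohyalin that guides the shaft. These genes are known to be on while a follicle grows and off while it rests. The titles and headers used to choose the libraries name no hair cycle stage. A difference in stage between the libraries therefore cannot be told apart from genotype.

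Expression was measured as RPKM, read numbers scaled to transcript length and to library size, and the transcripts of a gene were summed. The FASTQ files held 47.2 M and 47.5 M reads for icKO libraries a and b and 47.3 M and 50.3 M reads for WT libraries a and b; the letters are names only, and values are given in the order a, b. Of 24081 genes, 12744 reached 1 RPKM in at least 2 of the 4 libraries and were tested on log2(RPKM + 1), a scale that understates the change of low genes. Libraries of a genotype were closer to each other (Pearson r across these genes 0.99 for icKO and 0.978 for WT) than to the other genotype (0.921 to 0.937). The median gene was lower in icKO by 0.38 on the log2 scale, and all changes below are relative to it. In limma, 4563 genes (35.8%) passed a Benjamini-Hochberg adjusted p of 0.05, of which 2384 (18.7% of those tested) rose and 2179 (17.1%) fell in icKO, and 1296 of the called genes changed at least 2-fold. Of the 12744 tested genes 673 reached 1 RPKM in no icKO library and 114 in no WT library. Such genes passed the filter through 1 genotype alone, so their groups had to differ. Without the shift to the median, 17.1% of the calls were rises, against 52.2% with it, and 1072 genes rose and 5210 fell. One WT library differed in sex: WT library a held 10.65 RPKM of Xist, a transcript of female cells, and 0.0670 RPKM of the Y-linked Ddx3y, whereas icKO libraries a and b and WT library b held 14.1, 12.2 and 8.45 RPKM of Ddx3y.

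Calls also went with transcript length and GC content, which is given here because it bears on every group below. In the quintile of shortest transcripts (up to 1540 bases) 1034 genes rose and 183 fell in icKO. In the quintile richest in GC 260 rose and 985 fell. Across 12599 genes with a transcript length, the log2 change had a Spearman correlation of -0.29 with length and -0.35 with GC content; genes are not independent replicates, and no p is given. With both trends removed from the values, an alternative chosen after the data were seen, 2761 genes (21.9%) passed, 1604 (12.7%) higher and 1157 (9.18%) lower in icKO. Counts under both are given for the groups below, and the part that RNA quality or library preparation had in these trends was not tested. Each count below stands beside 18.7% of all genes higher and 17.1% lower in the main values. In a fit of all 8 week 1 libraries, where dermis and epidermis share 1 estimate of the spread, 2040 genes (16%) were higher and 1846 (14.5%) lower in icKO dermis, and 32 of the 155 calls of genes named by rule were lost; the counts of 4 or more that it moved by over 1.5 times are given with their groups.

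**Figure D1:**
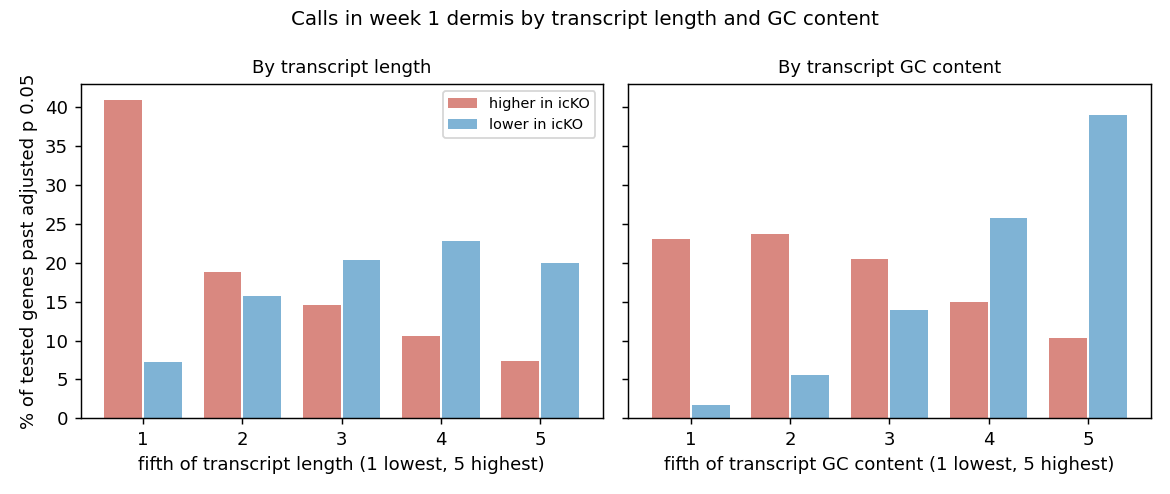
Share of tested genes past adjusted p 0.05 that were higher (red) or lower (blue) in icKO than in WT dermis, by quintile of transcript length (left) and of transcript GC content (right). Rises were most frequent among the shortest transcripts (1034 of 2521 genes) and falls among those richest in GC (985 of 2520 genes).

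Dlx3 itself was low in both icKO libraries. It was at 0.140 and 0.168 RPKM in icKO libraries, against 2.81 and 5.21 RPKM in WT libraries and fell (log2 change -1.70 ± 0.24, SE, adjusted p = 0.00447). The genotypes did not overlap, but with 2 libraries each an exact permutation test cannot go below p = 0.333. The authors' deposited table gives an icKO to WT ratio of 0.0403. Dlx3 lies on chromosome 11 at 95120119 to 95125296 on the plus strand (mm10, GENCODE M21). Of the 6 Dlx genes, all in the table, 3 passed the filter. Of these 3, Dlx3 and Dlx2 reached 1 RPKM in no icKO library. They passed the filter through WT alone, so their groups had to differ. Dlx2, a relative of Dlx3, was at 0.354 and 0.147 RPKM in icKO libraries, against 1.62 and 1.68 RPKM in WT libraries and fell (-0.71 ± 0.15, SE, adjusted p = 0.0142), a call lost without icKO library b (adjusted p = 0.0883) and with the length and GC trends removed (adjusted p = 0.202). Dlx5 was at 1.01 and 0.430 RPKM in icKO libraries and 1.55 and 1.54 RPKM in WT libraries and did not pass (-0.21 ± 0.19, SE, adjusted p = 0.422).

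The labelled tissue held its defining transcripts, and keratinocyte transcripts beside them. Col1a1, which encodes the main dermal collagen, was at 258 and 274 RPKM in icKO libraries, against 355 and 297 RPKM in WT libraries, and the endothelial adhesion gene Pecam1 at 42.0 and 37.6 RPKM in icKO libraries, against 90.0 and 94.9 RPKM in WT libraries. Krt14 and its partner Krt5 mark basal keratinocytes. Krt14 was at 329 and 254 RPKM in icKO libraries, against 784 and 1164 RPKM in WT libraries and fell (-1.35 ± 0.22, SE, adjusted p = 0.00618). Krt5 was at 312 and 229 RPKM in icKO libraries, against 950.5 and 1162 RPKM in WT libraries (-1.60 ± 0.18, SE, adjusted p = 0.00319). All 4 libraries thus held epidermal or follicular epithelium, with less of its RNA in both icKO libraries. In such bulk samples fewer cells of a type and less RNA per cell cannot be told apart, and this holds for every group below. Summed over the 13 basal layer genes tested, the level was 717 and 520.1 RPKM in icKO libraries, against 1968 and 2535 RPKM in WT libraries.

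**Figure D2:**
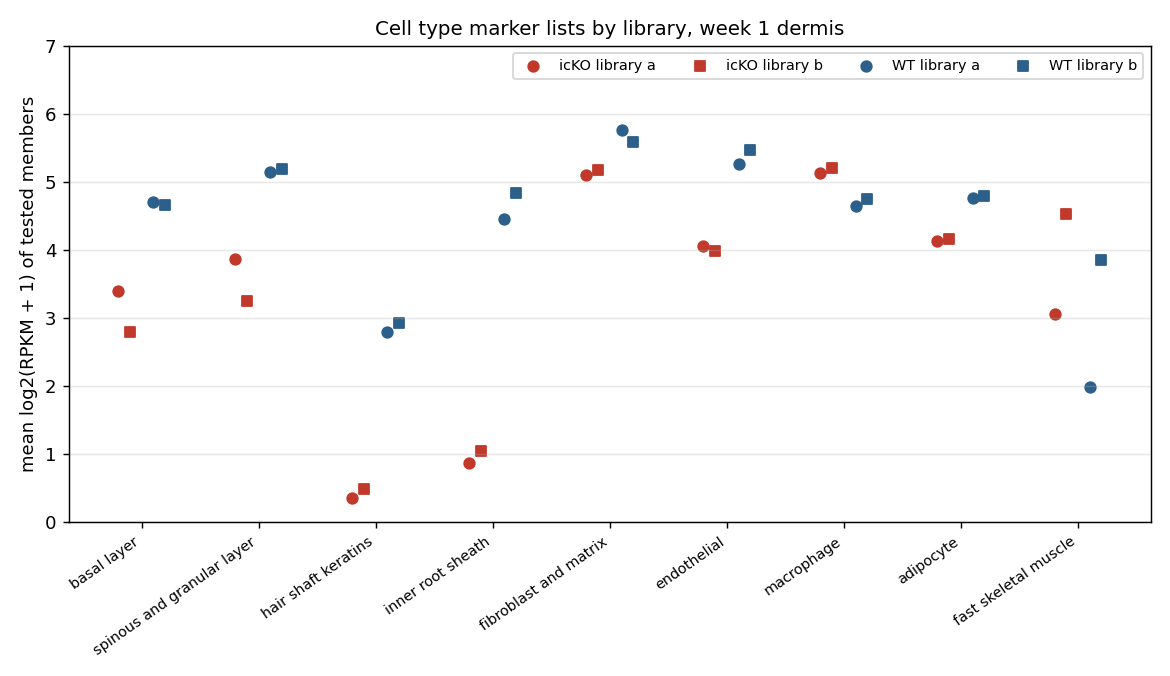
Mean log2(RPKM + 1) of the tested members of 9 marker lists in each library of week 1 dermis, icKO (red) left of WT (blue), circles for library a and squares for library b. Levels are shown without the shift to the all-gene median, unlike the changes given in the text. Hair shaft and inner root sheath lists show the widest gap between genotypes, fibroblast and macrophage lists a narrow one, and fast skeletal muscle varies within each genotype.

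Inner root sheath genes had the lowest median change of all lists examined. Of 9 listed genes 8 could be tested and all 8 fell, with a median log2 change of -3.37, beside 0 for all tested genes and 17.1% of all genes lower. Their mean log2 level was 0.86 and 1.04 in icKO libraries, against 4.45 and 4.83 in WT libraries. Of the 8, 3 reached 1 RPKM in no icKO library and so were tested through WT alone. With length and GC trends removed, with any 1 of the 4 libraries left out, and in the fit of 8 libraries, the count was again 8 of 8. Of the 10 largest falls among all tested genes whose groups did not overlap, 6 were in this list.

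The regions upstream of the 4 inner root sheath keratins of largest fall are shown because these genes move together and encode keratins of 1 structure. Each line gives the 250 bases before the RefSeq start on the gene's own strand, in GRCm38.p6 (mm10), with every TAATT or its reverse complement AATTA, the core that homeodomain proteins of the Dlx type are known to prefer, in capitals. Krt71 spans chr15:101743098-101743347, Krt27 chr11:99351119-99351368, Krt73 chr15:101802361-101802610 and Krt25 chr11:99322952-99323201, all on the minus strand.
Krt71: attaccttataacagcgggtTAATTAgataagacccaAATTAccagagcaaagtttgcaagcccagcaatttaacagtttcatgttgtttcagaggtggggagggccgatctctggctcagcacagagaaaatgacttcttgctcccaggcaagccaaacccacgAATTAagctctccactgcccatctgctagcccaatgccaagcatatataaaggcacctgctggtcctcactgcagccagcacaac
Krt27: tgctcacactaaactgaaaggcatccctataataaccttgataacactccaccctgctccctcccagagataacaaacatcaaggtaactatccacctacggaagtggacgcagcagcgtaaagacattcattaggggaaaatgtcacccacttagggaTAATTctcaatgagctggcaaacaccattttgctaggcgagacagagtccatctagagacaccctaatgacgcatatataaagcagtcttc
Krt73: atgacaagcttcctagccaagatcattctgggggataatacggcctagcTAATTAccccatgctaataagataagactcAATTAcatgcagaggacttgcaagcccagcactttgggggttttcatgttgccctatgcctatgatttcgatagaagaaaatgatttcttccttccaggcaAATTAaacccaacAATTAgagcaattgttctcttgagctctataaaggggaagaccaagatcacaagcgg
Krt25: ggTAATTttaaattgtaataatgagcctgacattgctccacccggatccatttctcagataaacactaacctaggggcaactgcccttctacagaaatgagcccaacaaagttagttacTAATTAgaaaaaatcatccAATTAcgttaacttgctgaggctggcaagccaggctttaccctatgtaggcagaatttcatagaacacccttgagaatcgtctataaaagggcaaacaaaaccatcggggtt
The core was found at 4 positions upstream of Krt71, 1 of Krt27, 5 of Krt73 and 4 of Krt25, where TAATTA counts on both strands. Of the 8 tested inner root sheath genes, all with a promoter in the RefSeq table, 7 (87.5%) held the core within these 250 bases, as did 12 of 17 keratin-associated protein genes (70.6%) and 3 of 7 hair shaft keratin genes (42.9%), against 6855 of 27025 promoters in the table (25.4%). The longer form TAATTG or CAATTA, which contains the core, was in 4 of the 8 (50%), in 7 of the 17 keratin-associated protein genes (41.2%) and in 0 of the 7 hair shaft keratin genes, against 7.34% of all promoters. These matches describe the sequence, were not tested, and show no binding. Related keratin and keratin-associated protein genes are not independent cases, and the promoters were not matched for base composition.

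Krt71 and its type I partners showed the pattern most clearly. Krt71, a type II keratin of the inner root sheath, was at 1.21 and 1.86 RPKM in icKO libraries, against 67.0 and 101 RPKM in WT libraries (-4.67 ± 0.23, SE, adjusted p = 0.00145). Krt27 was at 1.04 and 1.51 RPKM in icKO libraries, against 46.7 and 64.9 RPKM in WT libraries (-4.26 ± 0.21, SE, adjusted p = 0.00145). Krt25 was at 1.99 and 2.38 RPKM in icKO libraries, against 39.8 and 64.3 RPKM in WT libraries (-3.65 ± 0.24, SE, adjusted p = 0.00213); both encode type I keratins. In each case the lower WT library held many times the higher icKO library.

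The other type II keratins of the sheath followed. Krt73 was at 0.497 and 0.929 RPKM in icKO libraries, against 23.2 and 34.1 RPKM in WT libraries (-3.72 ± 0.23, SE, adjusted p = 0.00188). Krt72 was at 0.0311 and 0.265 RPKM in icKO libraries, against 9.65 and 11.5 RPKM in WT libraries (-2.96 ± 0.18, SE, adjusted p = 0.00176). Tchh, which encodes trichohyalin, the protein that hardens the sheath and the medulla, was at 1.46 and 1.84 RPKM in icKO libraries, against 27.04 and 29.8 RPKM in WT libraries (-3.10 ± 0.16, SE, adjusted p = 0.00145). The smallest changes in the list were those of Krt28 and Krt26, both type I keratins. Krt28 was at 1.118 and 0.612 RPKM in icKO libraries, against 10.6 and 19.4 RPKM in WT libraries (-2.69 ± 0.29, SE, adjusted p = 0.00302). Krt26 was at 0.112 and 0.205 RPKM in icKO libraries, against 3.76 and 2.61 RPKM in WT libraries (-1.46 ± 0.18, SE, adjusted p = 0.00352). These genes sit in 2 clusters, the type I keratins on chromosome 11 and the type II keratins on chromosome 15, and Tchh lies apart on chromosome 3.

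Hair shaft keratins were low in both icKO libraries. Of 16 listed and 15 in the table, 13 were tested, and 11 of these reached 1 RPKM in no icKO library. Such genes entered the test through WT alone and had to differ, so the count that follows is a description. The 13 fell, with a median log2 change of -2.20 and a range of -3.33 to -0.54. Their mean log2 level was 0.36 and 0.49 in icKO libraries, against 2.79 and 2.93 in WT libraries, so both icKO libraries were close to the floor of the scale. Krt35, a keratin of the early shaft cortex and cuticle, was at 0.692 and 1.19 RPKM in icKO libraries, against 23.1 and 25.2 RPKM in WT libraries (-3.33 ± 0.18, SE, adjusted p = 0.00151). Krt85, its type II counterpart, was at 0.707 and 0.994 RPKM in icKO libraries, against 14.6 and 18.3 RPKM in WT libraries (-2.86 ± 0.18, SE, adjusted p = 0.00188). Krt33a was at 0.217 and 0.238 RPKM in icKO libraries, against 11.9 and 12.3 RPKM in WT libraries (-3.04 ± 0.14, SE, adjusted p = 0.00145). Krt31 was at 0.211 and 0.494 RPKM in icKO libraries, against 11.5 and 11.2 RPKM in WT libraries (-2.82 ± 0.17, SE, adjusted p = 0.00176); both encode cortex keratins and have close relatives (Krt33a and Krt33b, and among the type II genes Krt81, Krt83 and Krt86), so the split of reads between such copies is uncertain. Of the 12 members with a length value, 11 were lower after the length and GC trends were removed, and 11 to 13 members were lower with any 1 library left out.

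**Figure D3:**
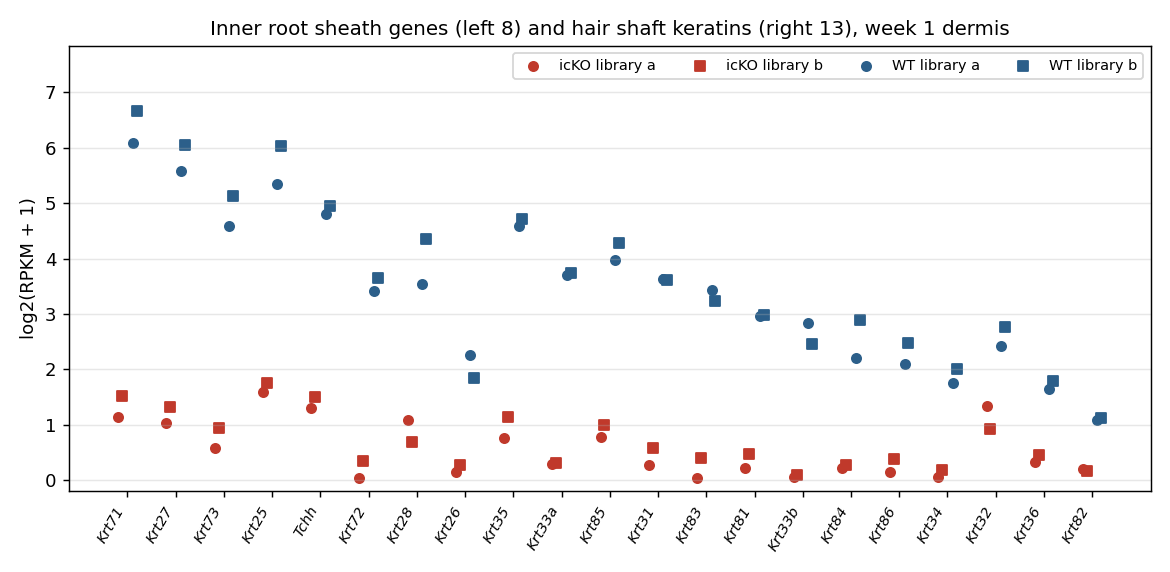
log2(RPKM + 1) of the 8 inner root sheath genes and the 13 hair shaft keratins in each library of week 1 dermis, ordered within each list by their log2 change, icKO (red) left of WT (blue), circles for library a and squares for library b. In every gene both icKO libraries lie below both WT libraries, and the gap shrinks toward genes that are low in WT.

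Keratin-associated proteins, which cross-link keratin in the shaft, passed the filter for 18 of 52 genes. Of these, 14 fell and 0 rose, with a median change of -1.44, and 17 were lower with the trends removed. Of the 18, 8 reached 1 RPKM in no icKO library and so had to differ, and the genes are near-identical within subfamilies, so single values are uncertain. Krtap7-1 was at 1.14 and 4.10 RPKM in icKO libraries, against 53.6 and 44.5 RPKM in WT libraries (-3.54 ± 0.38, SE, adjusted p = 0.00301). Krtap8-1 was at 3.74 and 6.82 RPKM in icKO libraries, against 56.1 and 45.4 RPKM in WT libraries (-2.70 ± 0.25, SE, adjusted p = 0.00258). Krtap22-2 was at 1.22 and 3.00 RPKM in icKO libraries, against 17.9 and 28.2 RPKM in WT libraries (-2.60 ± 0.33, SE, adjusted p = 0.00358). Without icKO library a 7 of the 18 were lower, so that the count rests in part on that library.

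Other genes of the shaft mostly went the same way. Of 8 tested, 6 fell and 1 rose, with a median of -2.06, and the same counts were found with the trends removed; 3 of the 8 reached 1 RPKM in no icKO library. S100a3, a calcium-binding protein of the hair cuticle, was at 3.86 and 7.76 RPKM in icKO libraries, against 66.7 and 76.7 RPKM in WT libraries (-3.10 ± 0.27, SE, adjusted p = 0.00238). Prr9, a proline-rich protein of the shaft, was at 6.58 and 10.7 RPKM in icKO libraries, against 80.8 and 78.6 RPKM in WT libraries (-2.72 ± 0.22, SE, adjusted p = 0.00237). Padi3, an enzyme that modifies trichohyalin, was at 0.451 and 0.622 RPKM in icKO libraries and 7.33 and 8.997 RPKM in WT libraries (-2.20 ± 0.17, SE, adjusted p = 0.00237). The gene that rose was Selenbp1, which encodes a selenium-binding protein, at 47.8 and 56.2 RPKM in icKO libraries, against 31.9 and 42.3 RPKM in WT libraries (0.86 ± 0.18, SE, adjusted p = 0.0131), a call lost without icKO library b (adjusted p = 0.0946); it was named after its values were seen.

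All 5 tested keratins of the companion layer and of stressed epithelium fell, and all 5 were lower with the trends removed. Krt17 was the most abundant, at 91.8 and 68.6 RPKM in icKO libraries, against 362 and 397 RPKM in WT libraries (-1.87 ± 0.17, SE, adjusted p = 0.00244). Krt75, a keratin of the companion layer that lies between the inner and outer root sheaths, was at 6.35 and 6.72 RPKM in icKO libraries, against 23.3 and 30.7 RPKM in WT libraries (-1.51 ± 0.17, SE, adjusted p = 0.00315). Krt6a and Krt16 are also known as keratins of wounded epidermis. Krt6a was at 28.3 and 28.5 RPKM in icKO libraries, against 101 and 118 RPKM in WT libraries (-1.53 ± 0.14, SE, adjusted p = 0.00249). Krt16 was at 3.18 and 3.36 RPKM in icKO libraries, against 19.0 and 29.1 RPKM in WT libraries (-2.15 ± 0.21, SE, adjusted p = 0.00293), so neither rose in icKO dermis.

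**Figure D4:**
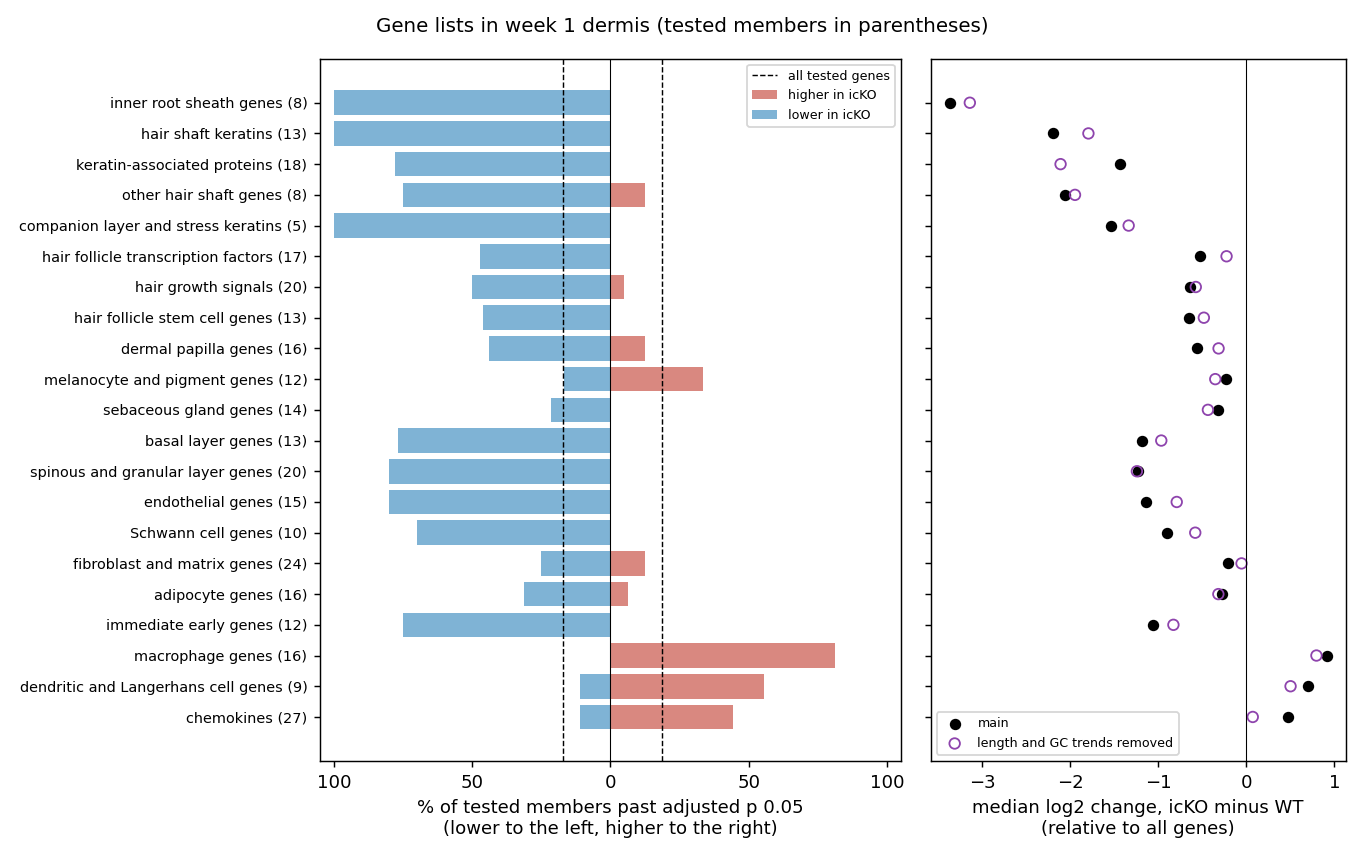
Left, share of the tested members of 21 gene lists past adjusted p 0.05 that were lower (blue) or higher (red) in icKO than in WT week 1 dermis, with dashed lines at 17.1% and 18.7%, the shares over all tested genes. Right, the median log2 change of each list in the main values (filled) and after removal of length and GC trends (open). Hair, keratinocyte, endothelial and Schwann cell lists lie to the left and the macrophage list to the right in both.

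Transcription factors of the follicle had a smaller median change than its structural genes. Of 17 tested, 8 fell and 0 rose, with a median of -0.52. Among the 17, 2 reached 1 RPKM in no icKO library and so were tested through WT alone. Hr, a corepressor required for the hair cycle in mice, was at 11.5 and 9.66 RPKM in icKO libraries, against 37.6 and 46.8 RPKM in WT libraries (-1.52 ± 0.17, SE, adjusted p = 0.00309). Hoxc13, a known regulator of hair keratin genes, was at 2.93 and 2.71 RPKM in icKO libraries, against 8.54 and 9.81 RPKM in WT libraries (-1.04 ± 0.15, SE, adjusted p = 0.0049). Barx2, a homeobox gene of the follicle, was at 8.90 and 6.63 RPKM in icKO libraries, against 22.2 and 24.2 RPKM in WT libraries (-1.10 ± 0.17, SE, adjusted p = 0.00574, and adjusted p = 0.0793 in the fit of 8 libraries). Ovol1, a zinc finger factor of epithelial differentiation, was at 2.39 and 1.61 RPKM in icKO libraries, against 6.19 and 10.7 RPKM in WT libraries (-1.25 ± 0.26, SE, adjusted p = 0.0141).

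The remaining 4 calls were of smaller changes. The vitamin D receptor gene Vdr had a change of -0.78, Sox21 of -0.72, Foxn1, the gene of the nude mouse, of -0.56, and Msx2 of -0.52. Without icKO library b the calls of Ovol1, Vdr, Sox21, Foxn1 and Msx2 were lost (adjusted p = 0.0722, 0.121, 0.189, 0.122 and 0.155). Sox21, Foxn1 and Msx2 were also lost without WT library b (adjusted p = 0.124, 0.178 and 0.194), and Foxn1 and Msx2 without icKO library a (adjusted p = 0.123 and 0.188). In the fit of 8 libraries 4 factors were lower, and Barx2, Vdr, Foxn1 and Msx2 did not pass (adjusted p for the last 3 of 0.0559, 0.233 and 0.0564). Msx2 also missed with the most abundant transcript of each gene (adjusted p = 0.0518). With the trends removed 5 factors were lower and 1, Runx3, was higher (0.63, adjusted p = 0.0374). The other 9 did not pass. Lef1, the Wnt effector of the hair matrix, was at 3.35 and 1.71 RPKM in icKO libraries, against 5.52 and 4.61 RPKM in WT libraries, and Gata3, a factor of the inner root sheath, at 20.01 and 13.2 RPKM in icKO libraries, against 19.5 and 29.6 RPKM in WT libraries. Msx1, Foxq1, Prdm1, Trps1, Runx1, Runx3 and Cux1 had changes between -0.52 and 0.24.

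Among 20 tested signalling genes of hair growth, 10 fell and 1 rose, with a median of -0.64. In this list 2 of the 20 reached 1 RPKM in no icKO library and so were tested through WT alone. The Notch ligand gene Jag2 was at 4.21 and 2.41 RPKM in icKO libraries, against 17.1 and 19.8 RPKM in WT libraries (-1.82 ± 0.23, SE, adjusted p = 0.00352). Its receptor gene Notch1 was at 3.02 and 2.08 RPKM in icKO libraries, against 10.1 and 13.8 RPKM in WT libraries (-1.49 ± 0.21, SE, adjusted p = 0.00461). Wnt10a, a ligand of the follicle, was at 1.74 and 1.26 RPKM in icKO libraries, against 4.97 and 6.63 RPKM in WT libraries (-1.06 ± 0.19, SE, adjusted p = 0.00826), a call lost without icKO library b (adjusted p = 0.0567) and with the trends removed (adjusted p = 0.0707). Id1, a target of BMP signalling, was at 40.5 and 34 RPKM in icKO libraries and 88.7 and 104.9 RPKM in WT libraries (-0.98 ± 0.15, SE, adjusted p = 0.00578). Its relative Id3, the member of highest WT level, was at 79.4 and 76.0 RPKM in icKO libraries and 112 and 158 RPKM in WT libraries and did not pass (-0.39 ± 0.18, SE, adjusted p = 0.131). The 1 rise, named after its values were seen, was Igf1, a growth factor of dermal cells, at 37.1 and 37.6 RPKM in icKO libraries and 27.9 and 14.0 RPKM in WT libraries (1.25 ± 0.29, SE, adjusted p = 0.019), also lost without icKO library b (adjusted p = 0.0775). Without icKO library b 3 members were lower and 0 higher, and with the trends removed 6 were lower and 1 higher.

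Genes of the follicle stem cell compartment were partly lower. Of 13 tested, 6 fell and 0 rose (median -0.65). Krt15, a keratin of the bulge and basal layer, was at 467 and 319 RPKM in icKO libraries, against 1430 and 1383 RPKM in WT libraries (-1.49 ± 0.19, SE, adjusted p = 0.00369). Lhx2, a homeobox gene of the bulge, was at 12.3 and 7.73 RPKM in icKO libraries and 38.2 and 28.8 RPKM in WT libraries (-1.29 ± 0.24, SE, adjusted p = 0.0093). Tbx1 was at 5.88 and 3.98 RPKM in icKO libraries and 19.8 and 17.9 RPKM in WT libraries (-1.38 ± 0.19, SE, adjusted p = 0.00436). Lgr6, a receptor of the follicle neck, was at 0.605 and 0.328 RPKM in icKO libraries and 3.28 and 2.32 RPKM in WT libraries (-0.99 ± 0.19, SE, adjusted p = 0.01), lost without icKO library b (adjusted p = 0.0597) and in the fit of 8 libraries (adjusted p = 0.0774); icKO library b decided 3 of the 6 calls in this list. With the trends removed 4 were lower. Lgr6 reached 1 RPKM in no icKO library and so was tested through WT alone.

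Dermal papilla genes were mixed. Of 16 tested, 7 fell and 2 rose (median -0.56). Among the 16, 2 reached 1 RPKM in no icKO library and so were tested through WT alone. Notum, a secreted inhibitor of Wnt proteins, was at 3.30 and 2.27 RPKM in icKO libraries, against 20.7 and 12.99 RPKM in WT libraries (-1.84 ± 0.25, SE, adjusted p = 0.00419). Igfbp3, an insulin-like growth factor binding protein, was at 136 and 80.7 RPKM in icKO libraries, against 415 and 287 RPKM in WT libraries (-1.33 ± 0.28, SE, adjusted p = 0.0138). Bmp6, a ligand, had a change of -0.68 (adjusted p = 0.0133) and Rspo1, an enhancer of Wnt signalling, rose by 0.69 (adjusted p = 0.0131, limma adjusted p in both); both calls were lost with either icKO library left out, at adjusted p up to 0.0791 and 0.107, and that of Bmp6 in the fit of 8 libraries (adjusted p = 0.0683). The second rise was Tbx18, named after its values were seen, with a change of 0.69. With the trends removed 3 were lower and 2 higher, and 2 and 3 were lower with 0 higher when icKO library b or a was left out.

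Keratinocyte genes of the epidermis fell beside those of the follicle. Of 13 basal layer genes, 10 fell and 0 rose, with a median of -1.18. Among the 13, 1 reached 1 RPKM in no icKO library and so was tested through WT alone. Lamb3, a chain of the basement membrane laminin, was at 3.90 and 1.78 RPKM in icKO libraries, against 20.6 and 18.1 RPKM in WT libraries (-2.08 ± 0.27, SE, adjusted p = 0.00384). Itgb4, the integrin that binds it, was at 6.72 and 3.72 RPKM in icKO libraries, against 28.7 and 25.8 RPKM in WT libraries (-1.85 ± 0.24, SE, adjusted p = 0.0039). Itga3, another integrin of that membrane, was at 2.33 and 1.44 RPKM in icKO libraries and 8.46 and 9.35 RPKM in WT libraries (-1.42 ± 0.19, SE, adjusted p = 0.00422). The 2 WT libraries were close for these 3 genes, whereas icKO library b was lower than icKO library a.

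Of 20 spinous and granular layer genes 16 fell and 0 rose (median -1.23). Krt77, a keratin of sweat ducts and interfollicular epidermis, was at 31.8 and 18.4 RPKM in icKO libraries, against 248 and 233 RPKM in WT libraries (-2.88 ± 0.24, SE, adjusted p = 0.00237). Lor, the main cornified envelope protein, was at 7.74 and 4.86 RPKM in icKO libraries, against 60.9 and 51.0 RPKM in WT libraries (-2.61 ± 0.22, SE, adjusted p = 0.00237). Krt10, the keratin of suprabasal cells, was at 71.3 and 45.4 RPKM in icKO libraries, against 279 and 361 RPKM in WT libraries (-2.08 ± 0.24, SE, adjusted p = 0.00315, but adjusted p = 0.113 in the fit of 8 libraries). Cdsn, a desmosomal protein of the upper layers, was at 6.06 and 4.36 RPKM in icKO libraries and 21.1 and 28.6 RPKM in WT libraries (-1.68 ± 0.21, SE, adjusted p = 0.00363). Dmkn was the most abundant member, at 187 and 114 RPKM in icKO libraries and 342 and 365 RPKM in WT libraries (-0.90 ± 0.23, SE, adjusted p = 0.0255), and without icKO library b its change was -0.58 (adjusted p = 0.0639). After both trends were removed, 8 basal genes and 15 spinous and granular genes were lower and 0 higher. In the fit of 8 libraries 9 basal genes and 9 spinous and granular genes were lower.

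Less changed in the barrier and gland lists. Of 12 lipid barrier genes 4 fell and 0 rose: the sphingomyelinase gene Smpd1 (-1.03), the fatty acid transporter gene Slc27a4 (-1.02), the lipoxygenase gene Alox12b (-0.84) and the ceramide synthase gene Cers3 (-0.73). The last 3 calls were lost without icKO library b (adjusted p = 0.102, 0.0579 and 0.116), and Slc27a4 moved to -0.67 without WT library b. In the fit of 8 libraries 2 were lower, with adjusted p of 0.112 for Slc27a4 and 0.186 for Cers3. Removal of the trends left 3 lower. Of the 12 lipid barrier genes 4 reached 1 RPKM in no icKO library and so were tested through WT alone. Of 36 listed late envelope and small proline-rich genes 9 passed the filter, and 1 of them, Lce1m, fell (-1.31 ± 0.19, SE, adjusted p = 0.0049); 1 was lower with the trends removed too.

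Among 14 sebaceous gland genes 3 fell (21.4%, near the 17.1% of all genes) and 0 rose (median -0.32), and 4 were lower with the trends removed. Without icKO library a 7 of the 14 were lower (median -0.64), and without icKO library b 3 were lower at a median of -0.0008. They were Acsbg1, an acyl-CoA synthetase gene, at 22.6 and 11.2 RPKM in icKO libraries, against 66.9 and 64.5 RPKM in WT libraries (-1.60 ± 0.29, SE, adjusted p = 0.00891), Krt79, a keratin of the gland duct, at 79.6 and 45.8 RPKM in icKO libraries, against 184 and 203 RPKM in WT libraries (-1.28 ± 0.25, SE, adjusted p = 0.0111, but adjusted p = 0.116 in the fit of 8 libraries), and Fads2, a desaturase gene (-0.77, lost without icKO library a at adjusted p = 0.157). Scd1, a desaturase of the gland and the member of highest level, was at 312 and 178 RPKM in icKO libraries and 373 and 427 RPKM in WT libraries and did not pass (-0.38 ± 0.26, SE, adjusted p = 0.281).

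Pigment cell genes went in both directions. Of 12 tested 4 rose (33.3%) and 2 fell (16.7%), beside 18.7% and 17.1% of all genes. The share that fell was thus near that of all genes. In this list 2 of the 12 reached 1 RPKM in no icKO library and so were tested through WT alone. With the trends removed 2 rose and 1 fell. Without icKO library b 2 were higher and 1 lower, and in the fit of 8 libraries 3 were higher and 1 lower. Mc1r, the receptor that sets pigment type, was at 2.46 and 1.89 RPKM in icKO libraries, against 0.697 and 1.07 RPKM in WT libraries (1.13 ± 0.18, SE, adjusted p = 0.00557). Mlana, a melanosome protein, was at 3.48 and 4.15 RPKM in icKO libraries, against 2.02 and 2.47 RPKM in WT libraries (0.95 ± 0.16, SE, adjusted p = 0.00736, lost without icKO library b at adjusted p = 0.0676, in the fit of 8 libraries at adjusted p = 0.0569 and with the trends removed at adjusted p = 0.215). Dct, an enzyme of melanin synthesis, ranged widely within both genotypes, at 12.7 and 5.24 RPKM in icKO libraries and 37.2 and 11.9 RPKM in WT libraries (-0.89 ± 0.55, SE, adjusted p = 0.247). Sox10, a factor shared with Schwann cells, was at 3.88 and 3.17 RPKM in icKO libraries and 14.3 and 12.3 RPKM in WT libraries (-1.28 ± 0.16, SE, adjusted p = 0.00377).

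Endothelial genes fell. Of 15 tested 12 fell and 0 rose, with a median of -1.14, and 11 were lower with the trends removed. Plvap, the protein of the diaphragms of fenestrated capillaries, was at 104 and 106 RPKM in icKO libraries, against 364 and 434 RPKM in WT libraries (-1.53 ± 0.13, SE, adjusted p = 0.00237). Cdh5, the cadherin of endothelial junctions, was at 16.2 and 13.8 RPKM in icKO libraries, against 47.1 and 51.3 RPKM in WT libraries (-1.27 ± 0.14, SE, adjusted p = 0.00315). The receptor gene Tie1 was at 9.74 and 8.21 RPKM in icKO libraries and 30.0 and 30.9 RPKM in WT libraries (-1.28 ± 0.15, SE, adjusted p = 0.00315). The transcription factor gene Sox17 was at 5.71 and 4.72 RPKM in icKO libraries and 19.4 and 19.1 RPKM in WT libraries (-1.33 ± 0.15, SE, adjusted p = 0.00315). With any 1 library left out 10 to 13 members were lower.

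Lymphatic genes were mixed. Of 4 tested, the receptor gene Flt4 fell (-0.70 ± 0.17, SE, adjusted p = 0.023) and the chemokine gene Ccl21a rose (0.49 ± 0.12, SE, adjusted p = 0.021). Both calls were lost with either icKO library left out, at adjusted p up to 0.131 and 0.0898, Flt4 also without WT library b (adjusted p = 0.077) and Ccl21a without WT library a (adjusted p = 0.055) and after quantile normalization (adjusted p = 0.595). Neither passed with the trends removed.

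Of 12 smooth muscle and pericyte genes, 3 fell and 1 rose, with the trends removed too; without WT library b 6 were lower. The 3 encode pericyte receptors or surface proteins. Cspg4 was at 1.60 and 1.09 RPKM in icKO libraries, against 9.44 and 7.33 RPKM in WT libraries (-1.62 ± 0.19, SE, adjusted p = 0.0033). Notch3 was at 2.87 and 3.21 RPKM in icKO libraries, against 11.3 and 14.7 RPKM in WT libraries (-1.41 ± 0.17, SE, adjusted p = 0.00353). Pdgfrb was at 5.19 and 5.30 RPKM in icKO libraries, against 13.4 and 15.7 RPKM in WT libraries (-0.94 ± 0.15, SE, adjusted p = 0.006). The smooth muscle actin gene Acta2 did not pass (-0.35 ± 0.13, SE, adjusted p = 0.0724). Rgs5, another pericyte marker, rose by 0.66 (adjusted p = 0.012 in limma), a call lost without icKO library b (adjusted p = 0.115).

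Schwann cell genes, which mark the sheaths of dermal nerves, fell for 7 of 10 members and rose for 0, with a median of -0.90. Prx, which encodes a protein that stabilises peripheral myelin, was at 4.72 and 4.79 RPKM in icKO libraries, against 16.1 and 15.0 RPKM in WT libraries (-1.15 ± 0.14, SE, adjusted p = 0.00352). Erbb3, the neuregulin receptor of these cells, was at 1.28 and 0.633 RPKM in icKO libraries and 5.84 and 5.32 RPKM in WT libraries (-1.40 ± 0.20, SE, adjusted p = 0.00453). Of the 10, 5 were lower with the trends removed.

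Fibroblast genes stood near the all-gene median. Of 24 tested 6 fell and 3 rose, with a median of -0.21, and 2 fell and 3 rose with the trends removed. Without the shift to the all-gene median 13 fell and 2 rose, and after quantile normalization 11 fell and 2 rose (median -0.54). Without icKO library a 2 were lower and 3 higher, and without icKO library b 3 were lower and 1 higher; without WT library b 9 were lower. Col6a1 was at 24.9 and 28.8 RPKM in icKO libraries, against 94.7 and 69.5 RPKM in WT libraries (-1.19 ± 0.18, SE, adjusted p = 0.00539). Col6a2 was at 20.2 and 25.7 RPKM in icKO libraries, against 72.2 and 53.8 RPKM in WT libraries (-1.04 ± 0.19, SE, adjusted p = 0.00944, adjusted p = 0.104 with the trends removed); both encode chains of collagen VI. Dpt, which encodes the matrix protein dermatopontin, was at 299 and 317 RPKM in icKO libraries, against 107 and 133 RPKM in WT libraries (1.74 ± 0.14, SE, adjusted p = 0.00237), and Mfap5, a protein of elastic microfibrils, rose by 0.88 (adjusted p = 0.00792 in limma, and 0.0672 without icKO library b). Dcn, the most abundant member, was at 709.5 and 687 RPKM in icKO libraries and 945 and 674 RPKM in WT libraries and did not pass (0.18 ± 0.17, SE, adjusted p = 0.439). Of 12 matrix proteases and their inhibitors 1 passed, with the trends removed too, the inhibitor gene Timp3, which had a change of -0.87 (adjusted p = 0.011, and adjusted p = 0.0577 without icKO library b).

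Fat cell genes changed in part. Of 16 adipocyte genes 5 fell and 1 rose, with a median of -0.27, and with the trends removed 1 fell and 1 rose. Among the 16, 1 reached 1 RPKM in no icKO library and so was tested through WT alone. With either icKO library left out 2 fell and 0 rose. Dgat2, the enzyme of the last step of triglyceride synthesis, was at 10.7 and 8.12 RPKM in icKO libraries, against 36.1 and 30.0 RPKM in WT libraries (-1.34 ± 0.18, SE, adjusted p = 0.00404). Plin1, which coats the lipid droplet, was at 1.94 and 2.97 RPKM in icKO libraries and 7.90 and 7.53 RPKM in WT libraries (-0.97 ± 0.19, SE, adjusted p = 0.0106, lost without icKO library a at adjusted p = 0.0685). Fabp4, the most abundant member, was at 1366 and 1092 RPKM in icKO libraries and 1227 and 1376 RPKM in WT libraries and did not pass (0.29 ± 0.15, SE, adjusted p = 0.17).

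Of 10 fatty acid synthesis genes 5 fell and 0 rose, and 4 were lower with the trends removed, 3 without icKO library b and 2 in the fit of 8 libraries. Srebf1, the transcription factor gene of lipid synthesis, was at 7.28 and 5.65 RPKM in icKO libraries, against 39.4 and 31.1 RPKM in WT libraries (-1.90 ± 0.18, SE, adjusted p = 0.00276). Fasn, fatty acid synthase, was at 11.7 and 9.35 RPKM in icKO libraries, against 43.3 and 57.9 RPKM in WT libraries (-1.78 ± 0.19, SE, adjusted p = 0.00301). Scd2, a desaturase, was at 9.57 and 7.89 RPKM in icKO libraries and 32.8 and 25.9 RPKM in WT libraries (-1.26 ± 0.17, SE, adjusted p = 0.00436, but adjusted p = 0.0658 in the fit of 8 libraries). Both WT libraries lay above both icKO libraries for each.

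Macrophage genes rose. Of 16 tested 13 rose and 0 fell, beside 18.7% of all genes higher, with a median of 0.91. Among the 16, 1 reached 1 RPKM in no WT library and so was tested through icKO alone. Cd68, a lysosomal protein of macrophages, was at 81.3 and 79.6 RPKM in icKO libraries, against 32.0 and 39.1 RPKM in WT libraries (1.54 ± 0.14, SE, adjusted p = 0.00258). Lyz2, lysozyme, was at 1010 and 988 RPKM in icKO libraries, against 594 and 613 RPKM in WT libraries (1.10 ± 0.11, SE, adjusted p = 0.00289). C1qb, a chain of the first complement component, was at 403 and 510 RPKM in icKO libraries, against 232 and 276 RPKM in WT libraries (1.22 ± 0.16, SE, adjusted p = 0.00398). Emr1, which encodes the F4/80 antigen, was at 35.6 and 36.4 RPKM in icKO libraries and 20.5 and 19.5 RPKM in WT libraries (1.19 ± 0.13, SE, adjusted p = 0.00302). In the fit of 8 libraries 4 of the 16 were higher (25%), beside 16% of all genes, and these 4 named genes did not pass, at adjusted p of 0.0659 for Cd68, 0.178 for Lyz2, 0.116 for C1qb and 0.0715 for Emr1. After removal of the trends 10 rose, and 7 to 12 rose with any 1 library left out, 7 of them without icKO library b. Without the shift to the all-gene median 7 rose and 2 fell. The summed level of basal layer genes was lower in the same icKO libraries, and its part in these rises was not tested.

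Antigen presentation genes were partly higher, and this depended on the scaling. Of 9 dendritic and Langerhans cell genes 5 rose and 1 fell, and 3 were higher and 1 lower with the trends removed, after quantile normalization, without icKO library a and in the fit of 8 libraries. H2-Eb1, a class II chain gene, was at 256 and 234 RPKM in icKO libraries, against 157 and 132 RPKM in WT libraries (1.14 ± 0.14, SE, adjusted p = 0.00348, but adjusted p = 0.0875 in the fit of 8 libraries). H2-Aa was at 1243 and 1116 RPKM in icKO libraries, against 765 and 543 RPKM in WT libraries (1.25 ± 0.18, SE, adjusted p = 0.00475). The invariant chain gene Cd74 was at 1178 and 932 RPKM in icKO libraries, against 771 and 644 RPKM in WT libraries (0.95 ± 0.16, SE, adjusted p = 0.00698), but neither passed after quantile normalization (adjusted p = 0.123 and 0.708). Epcam, an adhesion protein of Langerhans cells and keratinocytes alike, was at 10.4 and 5.71 RPKM in icKO libraries, against 32.9 and 27.5 RPKM in WT libraries (-1.45 ± 0.26, SE, adjusted p = 0.00841).

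Chemokines split. Of 27 tested 12 rose and 3 fell, with a median of 0.47; with the trends removed 5 rose and 5 fell, and 4 to 11 rose with any 1 library left out. In the fit of 8 libraries 5 were higher and 2 lower, and Ccl9, Ccl12 and Ccl8 did not pass (adjusted p = 0.186, 0.0798 and 0.0627). Ccl9, made by myeloid cells, was at 105.3 and 125 RPKM in icKO libraries, against 30.8 and 48.7 RPKM in WT libraries (1.92 ± 0.23, SE, adjusted p = 0.0033). Ccl5, which draws T cells and monocytes, was at 8.75 and 8.85 RPKM in icKO libraries and 3.56 and 2.66 RPKM in WT libraries (1.64 ± 0.17, SE, adjusted p = 0.00294). Ccl12 was at 7.35 and 11.5 RPKM in icKO libraries and 2.59 and 3.31 RPKM in WT libraries (1.75 ± 0.23, SE, adjusted p = 0.00385). The eotaxin gene Ccl11 was at 37.3 and 37.6 RPKM in icKO libraries and 21.5 and 22.1 RPKM in WT libraries (1.13 ± 0.13, SE, adjusted p = 0.00315). Ccl8 was the most abundant, at 1648 and 2384 RPKM in icKO libraries and 1297 and 783 RPKM in WT libraries (1.35 ± 0.27, SE, adjusted p = 0.0122), and did not pass without icKO library b (adjusted p = 0.0516), after quantile normalization (adjusted p = 0.121) or with the trends removed (adjusted p = 0.203). The 3 that fell, named after their values were seen, were Cxcl14 (adjusted p = 0.0039), Ccl27b (-1.41) and Cx3cl1 (-1.11), of which Cxcl14 is known as a chemokine of keratinocytes and fibroblasts.

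Other leukocyte lists had few tested members. Among 5 neutrophil genes 2 receptor genes rose and 1 gene fell, and 2 were higher and 2 lower with the trends removed. Csf3r, the receptor gene for granulocyte colony-stimulating factor, was at 11.6 and 9.49 RPKM in icKO libraries, against 2.15 and 3.06 RPKM in WT libraries (2.06 ± 0.19, SE, adjusted p = 0.00258). Cxcr2, a chemokine receptor gene, was at 11.8 and 8.20 RPKM in icKO libraries, against 2.02 and 3.12 RPKM in WT libraries (1.996 ± 0.23, SE, adjusted p = 0.00319). S100a8, a calprotectin subunit gene that is also expressed by keratinocytes, was at 1.74 and 1.73 RPKM in icKO libraries, against 9.40 and 6.27 RPKM in WT libraries and fell (-1.29 ± 0.20, SE, adjusted p = 0.00571). Its partner S100a9 was at 1.44 and 1.39 RPKM in icKO libraries and 2.06 and 1.396 RPKM in WT libraries and did not pass. Of 7 T cell genes 1 rose, Cd4 at 3.07 and 2.67 RPKM in icKO libraries and 2.19 and 1.49 RPKM in WT libraries (0.83 ± 0.18, SE, adjusted p = 0.0147, lost with either icKO library left out at adjusted p up to 0.0658), and Cd3g, the member of highest level, did not pass (-0.08 ± 0.19, SE, adjusted p = 0.761). Of 6 mast cell genes 1 rose, the chymase gene Cma1 at 14.1 and 18.5 RPKM in icKO libraries and 9.34 and 7.23 RPKM in WT libraries (1.27 ± 0.19, SE, adjusted p = 0.00527). In both lists 1 gene was higher with the trends removed too. The shares that rose, 14.3% of T cell genes and 16.7% of mast cell genes, lay near the 18.7% of all genes. No B cell gene passed the filter.

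Genes of the IL-1 family rose for 3 of 11 members (27.3%), beside 18.7% of all genes, and fell for 0; their median change was negative, at -0.17. Removal of the trends left 2 higher and 1 lower, without icKO library a there were 2 and 2, and without icKO library b, as in the fit of 8 libraries, 1 and 0. The 3 were Il18, an epithelial and myeloid cytokine, at 17.1 and 19.0 RPKM in icKO libraries, against 9.20 and 7.14 RPKM in WT libraries (1.44 ± 0.17, SE, adjusted p = 0.00326), the decoy receptor gene Il1r2 (1.06, lost without icKO library b at adjusted p = 0.0567 and in the fit of 8 libraries at adjusted p = 0.173) and the IL-33 receptor gene Il1rl1 (0.58, lost in 3 of the 4 sets that leave out 1 library, at adjusted p up to 0.124, and in the fit of 8 libraries at adjusted p = 0.212). Genes linked to STAT3, a transcription factor of cytokine receptors, fell for 9 of 23 and rose for 0, with 5 lower after the trends were removed. Their count was also 5 without icKO library a and in the fit of 8 libraries, and 4 without icKO library b. Among the 23, 1 reached 1 RPKM in no icKO library and so was tested through WT alone. Socs3, the feedback inhibitor of the STAT3 pathway, was at 40.8 and 31.4 RPKM in icKO libraries, against 132 and 110.5 RPKM in WT libraries (-1.35 ± 0.17, SE, adjusted p = 0.00378). Junb was at 156 and 104 RPKM in icKO libraries and 435 and 418 RPKM in WT libraries (-1.36 ± 0.20, SE, adjusted p = 0.00479). Stat3 itself was at 14.7 and 15.4 RPKM in icKO libraries and 32.3 and 36.7 RPKM in WT libraries (-0.77 ± 0.14, SE, adjusted p = 0.00868, and adjusted p = 0.0551 without icKO library a).

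None of the 10 largest rises whose groups did not overlap belonged to a list examined. Zfp457, a zinc finger gene, was at 22.7 and 12.3 RPKM in icKO libraries, against 0.726 and 2.09 RPKM in WT libraries (3.32 ± 0.36, SE, adjusted p = 0.00302). Il11, a cytokine that signals through gp130, was at 104.6 and 73.9 RPKM in icKO libraries, against 5.43 and 20.1 RPKM in WT libraries (3.31 ± 0.51, SE, adjusted p = 0.0055). Gal3st3, a sulfotransferase gene, was at 29.5 and 18.9 RPKM in icKO libraries and 1.76 and 4.94 RPKM in WT libraries (2.98 ± 0.38, SE, adjusted p = 0.00372). Klhl41, a gene known from skeletal muscle, was at 46.1 and 32.2 RPKM in icKO libraries and 3.46 and 10.48 RPKM in WT libraries (2.84 ± 0.42, SE, adjusted p = 0.00504). Spc24 and Nsl1 both encode kinetochore proteins and rose by 2.72 and 2.71, with adjusted p of 0.0027 and 0.00237 in limma. Smco1, A630089N07Rik, Gm15401 and Gm10052 rose by between 2.63 and 3.24 on the log2 scale. In 9 of the 10, all but Gm10052, WT library a was below WT library b and icKO library a above icKO library b; all 10 passed with any 1 library left out and with the trends removed.

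Genes of proliferation passed less often than all tested genes, in both directions. Of 28 cell cycle genes 3 rose (10.7%) and 2 fell (7.14%), beside 18.7% and 17.1% of all genes, with a median of -0.02. Of the 28, 4 reached 1 RPKM in no icKO library and so were tested through WT alone. After removal of the trends 3 were higher and 0 lower, and with either icKO library left out 2 and 0. Birc5, survivin, was at 5.95 and 5.21 RPKM in icKO libraries, against 3.12 and 3.00 RPKM in WT libraries (1.07 ± 0.15, SE, adjusted p = 0.00447), but with its most abundant transcript alone the change was 0.43 (adjusted p = 0.104). Ube2c, a ubiquitin enzyme of mitosis, was at 16.2 and 16.1 RPKM in icKO libraries and 10.4 and 10.7 RPKM in WT libraries (0.94 ± 0.13, SE, adjusted p = 0.00458), whereas the replication licensing gene Mcm2 was at 2.33 and 2.25 RPKM in icKO libraries and 5.96 and 6.24 RPKM in WT libraries (-0.73 ± 0.14, SE, adjusted p = 0.0114, lost with either icKO library left out at adjusted p up to 0.0824). Pcna, the most abundant in WT, was at 53.4 and 53.9 RPKM in icKO libraries and 75.5 and 63.6 RPKM in WT libraries and did not pass (0.01 ± 0.14, SE, adjusted p = 0.951).

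Immediate early genes, which are known to respond within minutes to stress and handling, fell for 9 of 12 members and rose for 0, with a median of -1.06; 4 were lower with the trends removed, and 6 without icKO library b or without WT library b. Nr4a1, an orphan nuclear receptor gene, was at 43.3 and 30.8 RPKM in icKO libraries, against 139 and 111 RPKM in WT libraries (-1.36 ± 0.20, SE, adjusted p = 0.00484). Fos was at 287 and 159.9 RPKM in icKO libraries, against 576 and 628 RPKM in WT libraries (-1.11 ± 0.26, SE, adjusted p = 0.0197). Jun was at 134 and 73.2 RPKM in icKO libraries and 299 and 282 RPKM in WT libraries (-1.17 ± 0.27, SE, adjusted p = 0.0179); without icKO library b their changes were -0.72 and -0.77. Both icKO libraries lay below both WT libraries for each of these, and icKO library b was the lower of its pair.

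Of 18 interferon-stimulated genes 4 rose (22.2%) and 0 fell (median 0.40), a share near the 18.7% of all genes, and 3 were higher with the trends removed. They were Gbp3, a guanylate-binding protein, at 13.3 and 14.9 RPKM in icKO libraries and 10.6 and 8.08 RPKM in WT libraries (0.93 ± 0.17, SE, adjusted p = 0.00934), the RNA sensor gene Oas1a (1.16), Irf7 (0.86) and Usp18 (0.55). All 4 calls were lost without icKO library b, at adjusted p between 0.0804 and 0.325, and Usp18 was also lost in the fit of 8 libraries and with the most abundant transcript (adjusted p = 0.109 and 0.0574). Of 10 p53 target genes 2 rose and 4 fell, beside 18.7% and 17.1% of all genes; 1 was higher and 2 lower with the trends removed, and 0 and 2 without icKO library b. Of 4 brown fat genes 1 rose, with the trends removed too. Of 4 antimicrobial genes 1, S100a8, fell, against 3 with the trends removed and 2 without icKO library a. Retinoid genes fell for 3 of 7 (2 with the trends removed), among them the binding protein gene Crabp2 at 14.4 and 13.9 RPKM in icKO libraries, against 44.4 and 38.6 RPKM in WT libraries (-1.11 ± 0.14, SE, adjusted p = 0.00369). The retinol transporter gene Stra6 was at 0.326 and 0.313 RPKM in icKO libraries and 2.09 and 2.35 RPKM in WT libraries (-0.91 ± 0.14, SE, adjusted p = 0.00551). Stra6 passed the filter through WT alone. Of 11 clock genes 1 fell, with the trends removed too: Per1 at 8.29 and 4.92 RPKM in icKO libraries and 23.5 and 23.5 RPKM in WT libraries (-1.35 ± 0.23, SE, adjusted p = 0.00672, but adjusted p = 0.0633 in the fit of 8 libraries). The metallothionein gene Mt1 was the 1 rise among 8 glucocorticoid-responsive genes, of which 1 fell; both counts held with the trends removed. It was at 609 and 616 RPKM in icKO libraries, against 323 and 311 RPKM in WT libraries (1.32 ± 0.11, SE, adjusted p = 0.00237, but adjusted p = 0.0555 in the fit of 8 libraries).

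Fast muscle transcripts differed widely between the libraries of a genotype. Of 10 fast muscle genes 0 passed in limma, with the trends removed too, at a median change of 1.33; 9 were higher when WT library b was left out and 4 when icKO library a was left out. Acta1, the skeletal muscle actin gene, was at 18.5 and 63.5 RPKM in icKO libraries, against 5.81 and 48.6 RPKM in WT libraries, so library b of each genotype held more than library a. Both tested slow muscle genes rose, also with the trends removed, Tnnt1 at 2.18 and 3.04 RPKM in icKO libraries and 1.17 and 1.30 RPKM in WT libraries (1.06 ± 0.17, SE, adjusted p = 0.00622) and Tpm3, which other cells also express, by 0.79 (adjusted p = 0.00784, and adjusted p = 0.065 without icKO library b). Of 7 red blood cell genes 0 passed, but 2 were lower with the trends removed, 6 were lower without icKO library a and 6 without WT library a; the haemoglobin gene Hba-a2, whose reads are shared with its copy, was at 94.0 and 45.3 RPKM in icKO libraries and 121 and 222 RPKM in WT libraries.

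Week 1 epidermis of the same genotypes was measured in 4 further libraries, after topical tamoxifen, so that tissue and route cannot be told apart. For 2 of these libraries the labels disagree: 1 titled icKO has WT in its genotype field, and 1 titled WT has icKO. Titles and table headers were followed, and every epidermal change and every difference between tissues given here rests on that. The test of the difference between the 2 changes, over 8 libraries and 13539 genes, passed for 4362 (32.2%), of which 2252 (16.6%) were higher and 2110 (15.6%) lower in dermis minus epidermis. Dlx3 did not pass (-1.08 ± 0.41, SE, adjusted p = 0.0804), though it did with a pseudocount of 0.1 (-2.67, adjusted p = 0.0126) and without WT library a of dermis (-1.48, adjusted p = 0.0393). Its epidermal levels were 1.46 and 1.82 RPKM in icKO epidermis, against 3.17 and 5.79 RPKM in WT epidermis, lower in both libraries titled icKO.

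Among the hair lists the difference was lower in dermis for 12 of 13 hair shaft keratins, 17 of 21 keratin-associated proteins and 5 of 8 inner root sheath genes, and higher for 0 in each. In these lists 11 hair shaft keratins, 8 keratin-associated proteins and 3 inner root sheath genes were tested in dermis through WT alone. The counts are therefore descriptions. Tchh had 3.62 and 4.19 RPKM in icKO epidermis, against 1.57 and 5.86 RPKM in WT epidermis, a change of 0.60 there against -3.10 in dermis (difference -3.71 ± 0.56, SE, adjusted p = 0.00385). For Krt71, with a change of -1.06 in epidermis, the difference did not pass (-3.62 ± 1.18, SE, adjusted p = 0.0507). Endothelial genes were lower for 14 of 15 members and higher for 0: Plvap changed by 1.34 in epidermis and by -1.53 in dermis (difference -2.89 ± 0.20, SE, adjusted p = 0.000329).

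Antimicrobial genes and stress keratins had the lowest median differences of all lists, -6.14 and -4.66. Krt16 was at 3147 and 1748 RPKM in icKO epidermis, against 23.1 and 13.8 RPKM in WT epidermis, and the difference was -9.50 ± 0.49, SE, adjusted p = 8.98e-05. Krt17 had a change of 1.49 in epidermis (difference -3.38 ± 0.34, SE, adjusted p = 0.00107). Of 10 antimicrobial genes 9 were lower in dermis minus epidermis and 0 higher. Only 4 of the 10 passed the filter in dermis. The others passed the filter over 8 libraries with the help of epidermis libraries, so this count is a description. Macrophage genes were lower for 5 of 16, with the difference for Cd68 at -1.08 ± 0.77, SE, adjusted p = 0.314, and class II genes went the other way: H2-Aa changed by -1.89 in epidermis (difference 3.12 ± 0.30, SE, adjusted p = 0.000998), and 5 of 9 dendritic and Langerhans cell genes were higher in dermis minus epidermis.

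**Figure D5:**
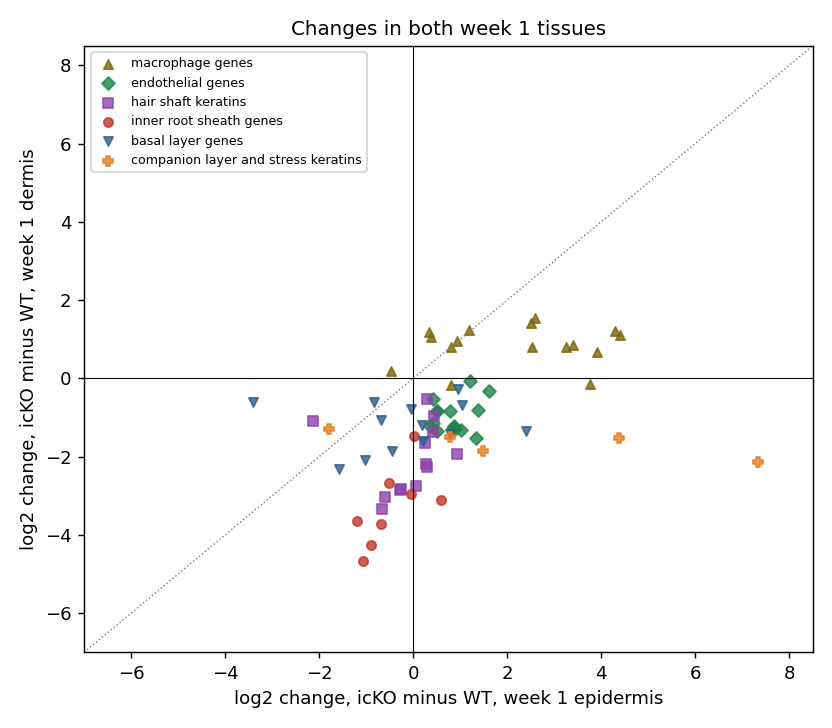
log2 change, icKO minus WT, in week 1 epidermis (horizontal) and week 1 dermis (vertical) for the tested members of 6 gene lists, each change relative to the all-gene median of its tissue. Points below the dotted line of equal change were lower in dermis than in epidermis, such as Krt16 at 7.34 in epidermis and -2.15 in dermis.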

How the data were processed

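The members, lists and alternatives were chosen with earlier results of these data known. Per the file headers and the submitters' processing notes, reads were aligned with TopHat2 2.1.0 to mm10 and the authors quantified RPKM per transcript in Partek; the header of the authors' comparison table names mm9, and its deposited ratio is used for Dlx3 only. The authors' counts of reads in the FASTQ files give the depth. How strand and shared reads were handled is not stated there. The column headers name a group and no replicate number. From the deposited RPKM, transcripts of a gene were summed (34138 entries, 24081 genes) and genes at 1 RPKM or more in 2 or more of 4 libraries kept. In the deposited comparison table the authors' group means are log2 values. Here log2(RPKM + 1) was fitted with limma 3.58.1 in R 4.3.3 (empirical Bayes, intensity trend), the median change was subtracted from icKO libraries, and p-values were adjusted over all tested genes (Benjamini-Hochberg, threshold 0.05, the rule for "rose" and "fell"). On data simulated for 12744 genes in this design, 87 of 100 genes changed by 2 and 94 of 100 changed by 3 on the log2 scale were recovered. The changed genes were drawn from those with a mean log2 level above 2. Values were simulated independently, with no length or GC trend and far fewer changed genes than were called here. The rates therefore do not extend to genes near the floor or to data with these trends. The genotype by tissue term used 8 libraries. Alternatives were a pseudocount of 0.1, no filter, a filter at 5 RPKM, no centring, quantile normalization, each library centred, a fit of all 8 libraries, no intensity trend, the most abundant transcript per gene, each library left out, and, chosen after the data were seen, length or length and GC trends removed. Transcript length and GC came from GENCODE M21, matched by RefSeq ID, promoters from RefSeq (GRCm38.p6).

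Genes were named by rule: Dlx3, Krt14, the 10 largest rises and falls whose groups did not overlap, per list the 4 of lowest adjusted p and that of highest WT level (in lists with fewer than 3 calls, those called and that of highest mean), all tested Dlx, follicle transcription factor and inner root sheath genes, and the 5 largest interactions in each direction. Markers named for the check of the tissue, and genes said so in the text, stand outside it. RPKM gives no counts here, so no counting error is given. One gene that the rule names is not reported here.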

Additional observations from a re-analysis of the deposited data

Results flagged for a closer look

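The genes below had icKO effects that differed between dermis and epidermis at week 1, by the limma interaction term over 8 libraries. The interaction is the log2 change in dermis minus that in epidermis. Tissue and tamoxifen route cannot be told apart in it. For 2 of the 4 epidermis libraries the genotype field disagrees with the title, and titles were followed. The basal keratin gene Krt14 had an interaction of -3.76 ± 0.34, SE, adjusted p = 0.000708, and was at 7981 and 5834 RPKM in icKO epidermis, against 1595 and 1776 RPKM in WT epidermis. The 5 genes of lowest interaction were S100a8, Krt16, S100a9, Krt6b and Gm5416, all higher in icKO than in WT epidermis. S100a8 had -10.21 ± 0.43, SE, adjusted p = 3.65e-05, with 8191 and 5704 RPKM in icKO epidermis, against 23.3 and 13.1 RPKM in WT epidermis. Its partner S100a9 had -8.77 ± 0.52, SE, adjusted p = 0.000177, with 10240 and 6684 RPKM in icKO epidermis, against 30.9 and 13.4 RPKM in WT epidermis. Krt16 had -9.50 ± 0.49, SE, adjusted p = 8.98e-05. Krt6b, its partner keratin, was below the filter in dermis, at 0.0868 and 0.186 RPKM in icKO libraries, against 0.223 and 0.619 RPKM in WT libraries, and had -8.61 ± 0.79, SE, adjusted p = 0.000731. Gm5416 was likewise below it, at 0 and 0.0824 RPKM in icKO libraries and 0.244 and 0.232 RPKM in WT libraries, and had -8.07 ± 0.60, SE, adjusted p = 0.000412.

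The 5 highest interactions were mixed. Gng13, a G protein subunit gene, had 5.97 ± 0.65, SE, adjusted p = 0.00136. It was at 8.76 and 8.52 RPKM in icKO libraries, against 3.46 and 4.50 RPKM in WT libraries, and at 0.152 and 0.511 RPKM in icKO epidermis, against 23.5 and 74.0 RPKM in WT epidermis. Gm10052 had 5.22 ± 0.93, SE, adjusted p = 0.00676. In the other 3, the values depended on WT library a of dermis, the library with Xist. Their interactions hold the change in epidermis as well as that in dermis. Defb8, a defensin gene, was at 80.5 and 124 RPKM in icKO libraries, against 0.167 and 61.5 RPKM in WT libraries. It had 8.23 ± 2.17, SE, adjusted p = 0.0259, with an interaction of 5.30 without WT library a and 11.1 without WT library b. 9130204L05Rik was at 33.7 and 44.3 RPKM in icKO libraries, against 0.487 and 45.1 RPKM in WT libraries. It had 6.53 ± 1.84, SE, adjusted p = 0.0321, with 4.002 and 9.05 in the same sets. Its change in dermis was 2.635 and did not pass (adjusted p = 0.18 in limma), so part of this interaction is a fall in icKO epidermis. Skint9 was at 2.11 and 0.689 RPKM in icKO libraries, against 0.0349 and 8.12 RPKM in WT libraries. It had 4.94 ± 1.24, SE, adjusted p = 0.0219, with 3.32 and 6.55. In dermis both icKO libraries lay between the WT libraries. With a pseudocount of 0.1 the interaction of Skint9 did not pass (adjusted p = 0.0684). The calls of Defb8, 9130204L05Rik and Skint9 were lost when either icKO dermis library was left out, at adjusted p of 0.0502 to 0.0948. The part of sex or genetic background in these values was not tested.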

How the results depend on the processing

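Dlx3 was lower and past the threshold in every alternative run in which it was tested, with log2 changes of -3.50 to -1.30 and adjusted p up to 0.0205; the stricter filter removed it. The 4563 calls became 8519 with no filter on low values and 2761 with length and GC trends removed, and 1545 (without icKO library b) to 4651 with any 1 library left out. Rises, 2384 in the main values, numbered 4889 with no filter, 1072 with no centring and 879 to 2462 with 1 library left out. Falls, 2179, numbered 3630, 5210, and 1157 with the trends removed, and 666 to 2335 with 1 library left out. The interaction calls, 4362, numbered 2308 to 3267 with 1 dermis library left out (1146 to 1681 higher, 1162 to 1670 lower). All other alternatives kept these counts within 1.5 times. Single values changed sign with a call: Dcn to -0.55 after quantile normalization, Mt2 to -0.61 with the length trend removed, S100a9 to -0.68 with both trends removed, and, with 1 library left out, Nr1d1 (-0.69 to 0.53) and Skint9 (-1.66 to 1.57), whose WT libraries lie on either side of icKO. Among genes named in the report, Bmp6, Fads2, Foxn1, Il1rl1, Jun, Mcm2, Mfap5, Plin1, Slc27a4, Sox21, Usp18 and Vdr also lost their calls with both trends removed, at adjusted p of 0.0525 (Mfap5) to 0.499 (Foxn1). Ccl21a, Cd4, Il1rl1, Irf7, Rgs5, Rspo1 and Usp18 lost theirs with no centring, and Ccl21a, Ccl8, Cd4, Cd74, Il1r2, Il1rl1, Irf7, Oas1a and Usp18 with no filter on low values, where more genes were tested. The causes were not tested. No paired analysis was possible because the column headers carry no replicate numbers, so the fit with a replicate block was not run. With 2 libraries a group, a lone library is assumed to vary like the other group, and icKO library b decides many calls.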

Other observations

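Tslp, which encodes a cytokine that keratinocytes release and that acts on dendritic and mast cells, was among the genes that rose in icKO dermis and was picked out after its values were seen. It was at 41.2 and 28.9 RPKM in icKO libraries, against 6.11 and 9.53 RPKM in WT libraries (log2 change 2.41 ± 0.25, SE, adjusted p = 0.00294), and passed with any 1 library left out (adjusted p up to 0.00751) and with length and GC trends removed (adjusted p = 0.00814). In the other tissue it was at 53.02 and 22.2 RPKM in icKO epidermis, against 5.43 and 5.70 RPKM in WT epidermis. In dermis Tslp rose while the basal keratinocyte genes Krt14 and Krt5 fell in the same libraries. The cell source of Tslp was not tested.

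Y-linked genes followed the difference in sex of WT library a. Eif2s3y was at 23.4 and 20.2 RPKM in icKO libraries, against 0.0811 and 16.6 RPKM in WT libraries, and Kdm5d at 1.26 and 1.24 RPKM in icKO libraries, against 0.0131 and 1.66 RPKM in WT libraries; neither passed (adjusted p = 0.1 and 0.155 in limma).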
